A study of Mus musculus with 20 samples.

Results

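The 10 genes described here act in the G1 phase of the cell cycle and were read in haematopoietic stem cells (HSCs) with and without the histone demethylase Kdm6b: the kinases Cdk4 and Cdk6, the D cyclins Ccnd1, Ccnd2 and Ccnd3, the Cip/Kip inhibitors Cdkn1a (p21), Cdkn1b (p27) and Cdkn1c (p57), and the INK4 inhibitors Cdkn2c (p18) and Cdkn2d (p19). The genes were taken by name, and all 10 were found among the 49671 genes of the RNA count files and passed the filter on low counts, as did 15185 genes in all. Their read counts in 6 RNA libraries and the ATAC peaks within 50 kb of each gene in 6 ATAC libraries were compared.

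D cyclins bind Cdk4 and Cdk6, and the complexes phosphorylate the pocket proteins Rb1, Rbl1 and Rbl2, which releases E2F factors to transcribe genes of DNA replication. INK4 proteins bind Cdk4 and Cdk6 and keep the cyclin away. Cip/Kip proteins bind cyclin and kinase together and inhibit cyclin E with Cdk2, while they can also help to assemble cyclin D complexes. Adult HSCs are mostly quiescent, Cdkn1c is best known there for holding them out of the cycle, and the amount of Cdk6 is known to bear on how quickly a quiescent HSC enters it.

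The study used C57BL/6 mice at 8 weeks of age that all carried Vav-CRE, a driver active throughout the blood system. Control mice were Vav-CRE:Kdm6b+/+, and the Kdm6b-KO mice were Vav-CRE:Kdm6b fl/fl, so the deletion was not limited to HSCs. HSCs were sorted as lineage-negative cKit+ Sca1+ CD150+ CD48- cells, and each of the 3 Control and 3 Kdm6b-KO RNA libraries came from a marrow pool of 6 mice, 3 of them male and 3 female. The 6 ATAC libraries, which map open chromatin, are titled Control (3) or 6bKO (3), but the genotype label of all 6 reads wild-type. They were grouped by title, and each ATAC difference below depends on those titles. The other 8 of the 20 samples of the series were not analysed here.

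Reads assigned to genes numbered 6793873 to 13797890 in the Control and 8683106 to 19336121 in the Kdm6b-KO RNA libraries, which puts 3 counts, the limit that a count of 0 allows, at 0.148 to 0.461 CPM (counts scaled to a common library total). Kdm6b itself lay at 92.0 to 282.5 CPM in Control against 142.5 to 202.1 CPM in Kdm6b-KO, and the groups overlapped. These are reads over the whole gene, which of its exons were deleted is not stated here, and the value therefore does not check the labels. All 10 HSC markers were detected in every library. Their sum was 3925 to 6455 CPM in Control against 4468 to 4775 in Kdm6b-KO, while Cd48, the gene of a marker the sort excluded, lay at 4.60 to 16.7 CPM over the 6 libraries. Of the HSC markers, Procr was higher and Hlf lower in every Kdm6b-KO library (log2 fold change 0.50 and -0.53, edgeR adjusted p = 0.265 and 0.291), and the others overlapped. All 9 neutrophil markers were detected in every library as well, and their sum was 1180 to 3630 CPM in Control, 4253 CPM in Kdm6b-KO replicate 1 and 193 and 190.0 CPM in the other 2 Kdm6b-KO libraries, so that replicate 1 stood apart from its group. The sums of megakaryocyte, mast cell and basophil, B cell, T and NK cell, and monocyte markers overlapped between the groups, and the T cell gene Cd3e was at 0.0874 CPM or less in every library. Single markers did separate the groups, as 20.5% of all genes tested did. Of the mast cell list, whose sum is mostly Gata2, Ms4a2 and Cpa3 were lower in every Kdm6b-KO library (log2 fold change -3.99 and -1.19, edgeR adjusted p = 0.0526 and 0.119). Ms4a2 was at 0.350, 0.109 and 0.0495 CPM there, below 3 counts in replicates 2 and 3. Gata2, Prg2 and Mcpt8 of that list overlapped (0.19, 1.05 and -1.89). The NK cell gene Klrb1c was higher in every Kdm6b-KO library (1.22, edgeR adjusted p = 0.1004), while Nkg7 and Lck overlapped (-0.61 and 0.16). Gp9 of the megakaryocyte list was higher in every one and Adgre1 of the monocyte list lower (0.58 and -1.28, edgeR adjusted p = 0.231 and 0.287). Adgre1 was low, at 0.989 to 3.58 CPM over all libraries. The other megakaryocyte genes tested, Pf4, Itga2b and Vwf, overlapped (-0.17, 0.45 and 0.64). So did Csf1r, Ly86, Cd68 and Ccr2 of the monocyte list (0.46, -0.68, 0.10 and 0.46).

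Promoter sequences are shown for Cdk4, Cdk6 and Cdkn1b, whose RNA levels did not overlap between the groups, and for Cdkn2d, the 1 gene of the 10 with no ATAC peak near its start in any library. Each runs 5′ to 3′ on the gene's strand from 250 bases before to 50 bases after the start, from RefSeq on GRCm38.p6. Capitals mark GC boxes (GGGCGG or its complement CCGCCC) and CCAAT boxes (CCAAT or its complement ATTGG), which are letter matches and not evidence of binding.
Cdk4: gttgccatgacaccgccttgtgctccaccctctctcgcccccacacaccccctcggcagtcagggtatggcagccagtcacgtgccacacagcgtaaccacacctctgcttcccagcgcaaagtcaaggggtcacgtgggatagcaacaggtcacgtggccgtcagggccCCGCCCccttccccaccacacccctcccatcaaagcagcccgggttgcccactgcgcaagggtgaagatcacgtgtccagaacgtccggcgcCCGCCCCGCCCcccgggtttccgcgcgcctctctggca
Cdk6: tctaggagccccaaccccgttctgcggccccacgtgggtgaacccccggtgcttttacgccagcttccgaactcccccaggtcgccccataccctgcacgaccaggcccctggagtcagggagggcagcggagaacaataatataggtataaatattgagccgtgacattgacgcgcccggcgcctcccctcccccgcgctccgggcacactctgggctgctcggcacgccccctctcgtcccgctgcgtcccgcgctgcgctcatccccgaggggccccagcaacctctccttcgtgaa
Cdkn1b: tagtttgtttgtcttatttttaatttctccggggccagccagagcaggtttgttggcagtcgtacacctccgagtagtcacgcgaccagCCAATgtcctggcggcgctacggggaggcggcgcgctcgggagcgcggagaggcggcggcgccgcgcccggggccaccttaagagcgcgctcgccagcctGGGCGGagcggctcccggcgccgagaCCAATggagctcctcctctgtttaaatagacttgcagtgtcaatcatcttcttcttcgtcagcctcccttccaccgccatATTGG
Cdkn2d: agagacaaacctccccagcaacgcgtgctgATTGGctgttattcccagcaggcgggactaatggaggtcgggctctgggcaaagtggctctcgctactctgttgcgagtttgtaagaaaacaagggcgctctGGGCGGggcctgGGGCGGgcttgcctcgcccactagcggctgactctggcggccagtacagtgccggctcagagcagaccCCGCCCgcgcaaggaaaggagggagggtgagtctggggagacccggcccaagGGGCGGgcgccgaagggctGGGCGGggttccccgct
The Cdk4 window, chr10:127063285-127063584 on the plus strand, holds 3 GC boxes, 2 of which run into each other just after the start. Cdk6 at chr5:3343643-3343942, plus strand, holds neither box. The Cdkn1b window at chr6:134920151-134920450, also on the plus strand, has 1 GC box and 3 CCAAT boxes. For Cdkn2d, at chr9:21291160-21291459 on the minus strand, 5 GC boxes and 1 CCAAT box were found. An ATAC peak overlapped the window in 6 libraries for Cdk4, 5 for Cdk6, 6 for Cdkn1b and 0 for Cdkn2d. GC content was 67.0%, 66.7%, 62.0% and 66.3% in that order, against a median of 52.7% over 32851 mouse promoters.

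RefSeq promoter rows were found for 7 members, 10 in all because Ccnd3, Cdkn1a and Cdkn2c have 2 starts each. Ccnd1, Ccnd2 and Cdkn1c had none. GC boxes occurred in 7 of the 10 windows, against 35.7% of all promoters, and CCAAT boxes in 4 of 10, against 37.4%. The 4 E2F-type words (TTTCCCGC, TTTGGCGC, TTTCGCGC and TTTGCCGC), the cAMP response element TGACGTCA and the AP-1 word TGAGTCA were searched on both strands and occurred in 0 of the 10, against 2.26%, 1.79% and 5.20% of all promoters. The forkhead word TGTTTAC lay in 1 Ccnd3 promoter (3.65% of all) and the ETS word CCGGAAG in the other (8.86% of all). With 10 windows these are descriptions only.

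Cdk6 and Cdkn1b RNA lay lower in every Kdm6b-KO library than in any Control library, by 2.00-fold and 2.76-fold, and Cdk4 lay slightly higher in every one. Of all 15185 genes tested, 20.5% did not overlap between the groups, 9.49% on the lower and 11% on the higher side. None of the 10 genes passed the threshold of an adjusted p under 0.05 in edgeR's quasi-likelihood test, against 0.461% of all genes tested (70 genes). DESeq2 called 2 of the 10, Cdk6 and Cdkn1b, and limma-voom called 0, where the tools called 3.08% and 0.277% of all genes. At an unadjusted p under 0.05 there were 3 members, Cdk6, Cdkn1b and Cdkn1c, all with lower fitted levels in Kdm6b-KO, where 14.8% of all genes met that limit in either direction and 7.22% on the lower side. By fitted log2 fold change, 4 members were higher and 6 lower, with a median of -0.10 against -0.0012 over all genes tested. In bulk RNA, fewer cells that express a gene and less RNA per cell cannot be told apart, and since no transcript lengths were at hand, the levels of different genes are not ranked below. Ratios and sums over genes are of reads, not of transcripts, and serve only to compare libraries.

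**Figure D1:**
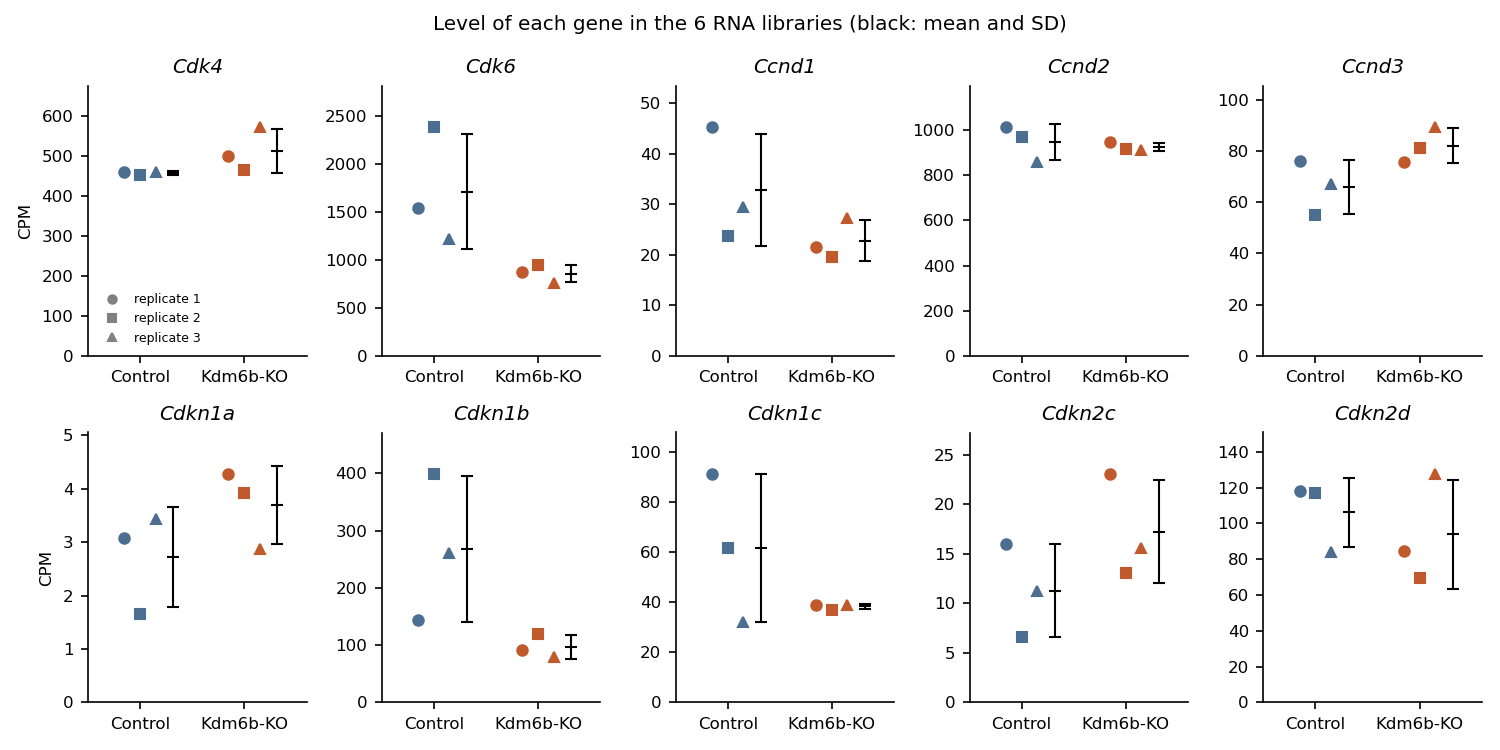
CPM (linear axes from 0) of each of the 10 genes in the 3 Control and 3 Kdm6b-KO RNA libraries, one marker shape per replicate number, with the group mean and SD in black. Cdk6 and Cdkn1b are the 2 genes whose Kdm6b-KO libraries all sit below the Control libraries, and Cdk4 is the 1 gene whose Kdm6b-KO libraries all sit above them.

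Cdk6, the kinase most linked to HSC activation, lies at chr5:3341004-3531008 on the plus strand. Its level was 1541, 2384 and 1215 CPM in Control replicates 1, 2 and 3 and 872, 943 and 761 CPM in Kdm6b-KO replicates 1, 2 and 3. The highest Kdm6b-KO library was below the lowest Control library, and Control replicate 2 was the highest of the 6. The means were 1713 ± 603 and 858.5 ± 92.2 CPM (SD, n = 3 libraries each), and edgeR gave a log2 fold change of -0.997 (SE 0.26, 95% interval -1.56 to -0.44, adjusted p = 0.117). The call depended on the fit: DESeq2 gave an adjusted p of 0.00596, edgeR without a filter on low counts 0.00359, and edgeR without Control replicate 1 0.0385, fits in which 3.08%, 1.68% and 3.22% of all genes were called. Over 13 alternatives the adjusted p from edgeR, DESeq2 or limma ran from 0.00359 to 0.409 and the log2 fold change from -1.20 to -0.68. Without Kdm6b-KO replicate 1, the library with the high neutrophil sum, the log2 fold change was -1.01.

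Cdk4, the other D-cyclin kinase (chr10:127063535-127067288, plus strand), was at 460.3, 453 and 461 CPM in Control against 502, 465 and 573 in Kdm6b-KO. The groups did not overlap, although Kdm6b-KO replicate 2 exceeded the highest Control library by only a few CPM. The fitted log2 fold change of Cdk4 was 0.16 (SE 0.20, 95% interval -0.26 to 0.58, edgeR adjusted p = 0.738).

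The balance of the kinases was read within each library as the ratio of Cdk6 to Cdk4 counts, in which library scaling drops out. It was 3.35, 5.26 and 2.63 in Control against 1.74, 2.03 and 1.33 in Kdm6b-KO, with no overlap. That follows from the levels above, where Cdk6 was lower and Cdk4 higher in every Kdm6b-KO library. The ratio is thus no separate result, and its permutation p could only be the smallest possible. Not corrected for length, Cdk6 gave 72.5% to 84.0% of the reads of the 2 kinases in Control against 57.0% to 67.0% in Kdm6b-KO. The ratio was 2.15-fold lower in Kdm6b-KO (difference -1.10 on the log2 scale, two-sided exact permutation p = 0.1, adjusted 0.2 over the 4 ratios computed), and 0.1 is the smallest p that 3 against 3 libraries allow. Cdk4 and Cdk6 counted together were 2002, 2837 and 1676 CPM in Control against 1373, 1409 and 1333 in Kdm6b-KO.

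**Figure D2:**
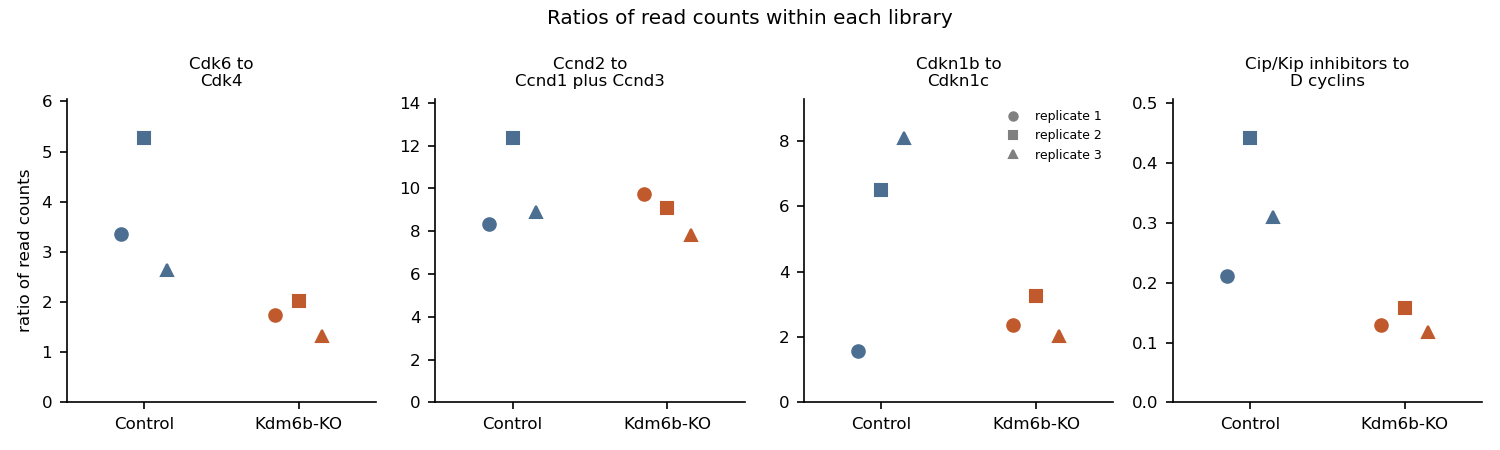
Ratios of read counts within each RNA library (linear axes from 0), one panel per ratio and one point per library, with marker shapes for the replicate numbers. The ratios of Cdk6 to Cdk4 and of Cip/Kip inhibitors to D cyclins do not overlap between Control and Kdm6b-KO, while the ratios among the D cyclins and of Cdkn1b to Cdkn1c do.

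Among the D cyclins, Ccnd2 (chr6:127125162-127152188) was at 1012, 970.2 and 858 CPM in Control against 947, 917 and 911 in Kdm6b-KO. All Kdm6b-KO values fell inside the Control range, and the log2 fold change was -0.03 (SE 0.21, 95% interval -0.47 to 0.41, edgeR adjusted p = 0.960), turning to 0.12 when libraries were scaled by their totals. That scaling moved the median of all genes to 0.15. Ccnd1 (chr7:144929931-144939831), the D cyclin best known as a target of growth factor signalling, was at 45.3, 23.8 and 29.5 CPM in Control against 21.5, 19.6 and 27.4 CPM in Kdm6b-KO. Control replicate 1 was the highest, the groups overlapped, and the log2 fold change was -0.52 (SE 0.27, edgeR adjusted p = 0.382). Ccnd3 (chr17:47505051-47599689, plus strand), which is prominent in lymphoid and erythroid precursors, was at 76.0, 54.9 and 67.1 CPM in Control against 75.7, 81.2 and 89.3 CPM in Kdm6b-KO. Only Kdm6b-KO replicate 1 lay within the Control range, and the log2 fold change was 0.31 (SE 0.19, edgeR adjusted p = 0.465).

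Summed, the D cyclins were at 1133, 1049 and 955.0 CPM in Control against 1044, 1017 and 1028 in Kdm6b-KO, so that each Kdm6b-KO sum lay within the Control range. The ratio of Ccnd2 to Ccnd1 plus Ccnd3 was 8.34, 12.3 and 8.88 in Control against 9.74, 9.09 and 7.81 in Kdm6b-KO. These ratios overlapped (difference -0.13 on the log2 scale, exact permutation p = 0.7, adjusted 0.7).

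Cdkn1b, the inhibitor p27 (chr6:134920401-134925525, plus strand), had the largest fitted change of the 10 genes. Its level was 144, 399 and 260.5 CPM in Control against 92.3, 120.3 and 79.5 CPM in Kdm6b-KO. Every Kdm6b-KO library was below the lowest Control library, replicate 1, and Control replicate 2 was again the highest. The means were 268 ± 128 and 97.4 ± 20.9 CPM (SD, n = 3), and the log2 fold change was -1.46 (SE 0.33, 95% interval -2.19 to -0.73, edgeR adjusted p = 0.106). As with Cdk6, DESeq2 (adjusted p = 0.000356), edgeR without the filter (1.5e-07) and edgeR without Control replicate 1 (0.000534) called it. Over the 13 alternatives the adjusted p from edgeR, DESeq2 or limma ran from 1.5e-07 to 0.377, and the log2 fold change from -1.76 to -1.06. Without Kdm6b-KO replicate 1 it was -1.42.

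Cdkn1c, the inhibitor p57 (chr7:143458339-143461059), is an imprinted gene. It was at 91.4, 61.6 and 32.3 CPM in Control against 39.0, 37.0 and 39.0 CPM in Kdm6b-KO. Control replicate 3 lay below all Kdm6b-KO libraries and the other 2 Control libraries above them, so the groups overlapped while the spread was 29.5 CPM in Control against 1.11 CPM in Kdm6b-KO (SD). The log2 fold change was -0.68 (SE 0.30, 95% interval -1.34 to -0.02, edgeR adjusted p = 0.325). It was -0.99 without Control replicate 3 (edgeR adjusted p = 0.0601) and -0.28 without Control replicate 1. Cdkn1a, the p53 target p21 (chr17:29090979-29100722, plus strand), was low, with 20, 13 and 47 counts in Control against 49, 36 and 58 counts in Kdm6b-KO. That is 3.07, 1.65 and 3.43 CPM against 4.28, 3.92 and 2.87 CPM, overlapping groups with a log2 fold change of 0.42 (SE 0.45, edgeR adjusted p = 0.705). The 95% interval ran from -0.54 to 1.38.

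Together the Cip/Kip genes gave 239, 463 and 296 CPM in Control against 136, 161 and 121 in Kdm6b-KO. Most of this sum was Cdkn1b, with a mean of 268 of 333 CPM in Control and 97.4 of 139 CPM in Kdm6b-KO. Cdkn1a and Cdkn1c overlapped between the groups. Most of the D cyclin sum was Ccnd2 (947 of 1046 CPM in Control and 925 of 1030 CPM in Kdm6b-KO). The ratio of Cip/Kip to D cyclin counts thus mainly sets Cdkn1b against Ccnd2. This ratio was 0.211, 0.441 and 0.310 in Control against 0.130, 0.159 and 0.118 in Kdm6b-KO, without overlap. It was 2.28-fold lower in Kdm6b-KO (difference -1.19 on the log2 scale, exact permutation p = 0.1, adjusted 0.2). The ratio of Cdkn1b to Cdkn1c ranged over 1.58, 6.48 and 8.07 in Control against 2.37, 3.25 and 2.04 in Kdm6b-KO, with overlap (exact permutation p = 0.4, adjusted 0.533). Control replicate 1 differed from the other Control libraries here, with the least Cdkn1b and the most Cdkn1c of its group.

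Of the INK4 genes, Cdkn2c, or p18 (chr4:109660876-109666756, minus strand), was at 16, 6.61 and 11.3 CPM in Control against 23.1, 13.1 and 15.5 CPM in Kdm6b-KO, with overlap and a log2 fold change of 0.62 (SE 0.34, edgeR adjusted p = 0.410). Cdkn2d, or p19 (chr9:21288459-21291421, minus strand), was at 118.0, 117 and 83.8 CPM in Control against 84.3, 69.3 and 128 CPM in Kdm6b-KO. Its groups overlapped fully, the log2 fold change was -0.17 (SE 0.24, edgeR adjusted p = 0.770), and the highest library was Kdm6b-KO replicate 3. The remaining INK4 genes, Cdkn2a and Cdkn2b, were not tested, because Cdkn2a had 0 counts in all 6 libraries, which allows up to 0.148 to 0.461 CPM by library, and Cdkn2b 3 counts in Control replicate 2 alone.

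**Figure D3:**
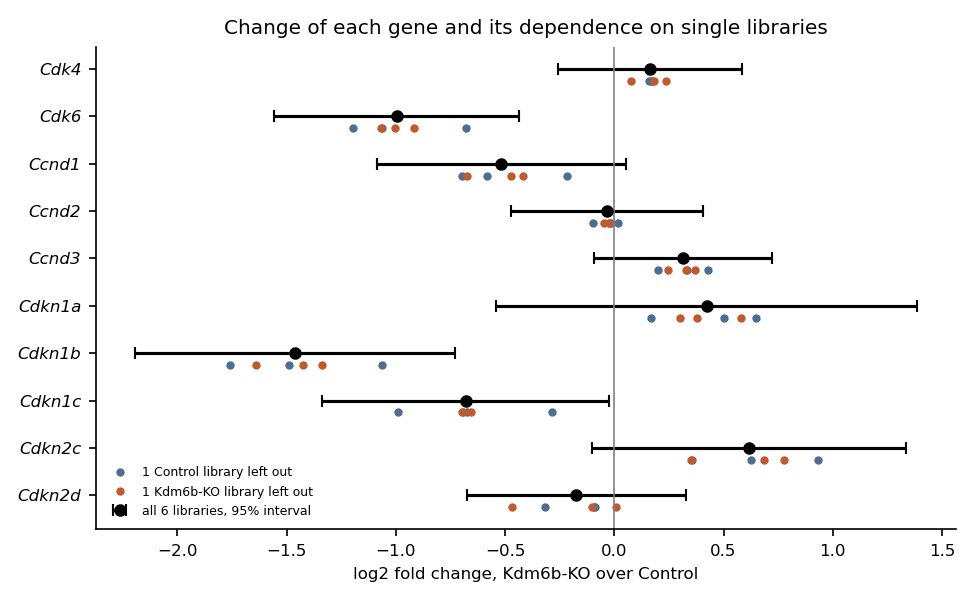
Log2 fold change (Kdm6b-KO over Control) of the 10 genes from edgeR with 95% intervals (black), beside the values with each Control or Kdm6b-KO library left out (coloured points). Cdk6 and Cdkn1b stay below 0 with any 1 library left out, from -1.20 to -0.68 and from -1.76 to -1.06, while the values of Ccnd2 and Cdkn2d lie on both sides of 0.

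Values of genes outside the cell cycle stand beside those of Cdk6 and Cdkn1b. Kit, the receptor gene used in the sort, was at 781, 2169 and 1865 CPM in Control against 848, 1160 and 977 in Kdm6b-KO, with its highest value in Control replicate 2, as for Cdk6 and Cdkn1b, and its groups overlapped. All 8 erythroid markers were detected in every library. The erythroid marker sum was 333, 176 and 269 CPM in Control against 215, 40.8 and 51.0 CPM in Kdm6b-KO, also overlapping, and the neutrophil sum is given above. Most of the erythroid sum was Car1, at 298, 155 and 221 CPM in Control against 169, 10.2 and 17.1 CPM in Kdm6b-KO, while Hbb-bt was higher in every Kdm6b-KO library (log2 fold change 1.06, edgeR adjusted p = 0.169) and Epor had a log2 fold change of 0.72 (edgeR adjusted p = 0.413). In Kdm6b-KO replicate 1, whose erythroid and neutrophil sums were the highest of its group, Cdk6 and Cdkn1b lay between the other 2 Kdm6b-KO libraries. The HSC, megakaryocyte, mast cell, NK cell and monocyte markers that separated the groups are given above. The part of these differences in the Cdk6 and Cdkn1b values was not tested.

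By the smallest root mean square difference of centred log2 CPM over the 6 libraries, among 7525 genes, the patterns most like Cdk6 were those of Abcg1 (0.106), a cholesterol exporter, Vmp1 (0.117) and Ahctf1 (0.119). Abcg1 was at 1912 CPM in Control against 897 in Kdm6b-KO on average. Those most like Cdkn1b were Txlng (0.139) and the RNA-binding protein genes Hnrnpr (0.208) and Tial1 (0.231), with Hnrnpr at 782 and 282 CPM. The nearest gene to Cdk4 was Cops6 (0.0356), to Ccnd1 the proliferation marker Mki67 (0.0999), to Ccnd2 Agpat1 (0.0338), and to Ccnd3 Ptgs1 (0.0299). For Cdkn1a it was Ubap2 (0.0575), for Cdkn1c the haem synthesis gene Cpox (0.107), for Cdkn2c Ptov1 (0.165) and for Cdkn2d Wdr55 (0.0823). Cdkn1b and Cdkn2c had the least close nearest genes.

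The pathway around these genes was described with 52 further genes, of which 50 were tested. None passed the threshold in edgeR or limma-voom, 28 were lower and 22 higher by fitted log2 fold change, and the median was -0.16. An unadjusted p under 0.05 was reached by 3 on the higher side, as by 7.63% of all genes, and by 8 on the lower side, as by 7.22% of all genes. DESeq2 called 5 of them, where it called 3.08% of all genes. The edgeR fits without the filter and without Control replicate 1 called 4 each, where they called 1.68% and 3.22% of all genes.

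The 16 E2F targets of DNA replication had a median log2 fold change of -0.34, with 12 lower and 4 higher, and 5 reached an unadjusted p under 0.05 on the lower and 1 on the higher side. Of all genes tested, 50.1% were lower, and 7.22% and 7.63% reached that p on the lower and the higher side. Rrm1, the large subunit of ribonucleotide reductase, was at 394.9 ± 37.8 CPM in Control against 290.0 ± 26.6 CPM in Kdm6b-KO (fitted log2 fold change -0.45, edgeR adjusted p = 0.309), without overlap. Mcm3, part of the replicative helicase, was at 338 ± 16.2 and 305 ± 57.4 CPM with overlap. Mcm2, of the same helicase and the 1 gene on the higher side at that p, named after its values were seen, was at 85.9 ± 26.5 and 121 ± 17.3 CPM with overlap. The genes that DESeq2 called, named here after their values were seen, were Tyms, Pola1 and Rrm2 of this list, with E2f8 and Ccne2. Tyms, the thymidylate synthase, was at 262, 387 and 305 CPM in Control against 156, 184 and 197 in Kdm6b-KO, and Pola1, the catalytic subunit of DNA polymerase alpha, at 81.9, 79.0 and 86.8 CPM against 50.1, 52.9 and 37.4 CPM. Neither overlapped between the groups, and their edgeR adjusted p were 0.106 and 0.0891.

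Downstream of the D cyclins, of the 5 Cdk2-arm genes (median -0.22), Ccne2, a cyclin E, was at 90.3, 101 and 90.5 CPM in Control against 54.5, 54.6 and 52.4 CPM in Kdm6b-KO (edgeR adjusted p = 0.0716), while Cdk2 was at 89.5 ± 13.9 and 96.3 ± 10.1 CPM. E2F and DP factors (10 genes, median -0.20) were lower in 6 and higher in 4. The members with the most reads, Tfdp2 and Tfdp1, both partners of E2F in DNA binding, were at 140.1 ± 40.3 against 98.6 ± 15.3 CPM and at 79.4 ± 18.8 against 71.0 ± 0.338 CPM. E2f8, a repressive E2F, was at 42.6 ± 7.99 and 23.9 ± 4.74 CPM. The pocket protein genes Rbl2 (101 and 109 CPM) and Rb1 (89.8 and 96.2 CPM) overlapped between the groups.

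The CDK-activating kinase (3 genes, median -0.18) included Ccnh at 308 ± 15.7 and 272 ± 18.1 CPM and Cdk7 at 129 ± 1.83 and 110.3 ± 11.1 CPM. Genes of the turnover of D cyclins and Cip/Kip proteins (8 genes, 5 higher and 3 lower, median 0.08) included Skp1 at 640.1 and 572 CPM and Cul1 at 116 and 128 CPM, both of the SCF ubiquitin ligase. Transcription factors that act on inhibitor genes (5 genes, 4 higher and 1 lower, median 0.31) included Foxo3, a factor for Cdkn1b, at 465 ± 146 and 389 ± 42.3 CPM and Trp53, the factor for Cdkn1a, at 427 ± 67.4 and 458 ± 47.4 CPM. Neither Foxo3 nor Trp53 passed the threshold (edgeR adjusted p = 0.653 and 0.863). Zbtb17 of this list and Fbxo31 of the turnover list, named after their values were seen, had an unadjusted p under 0.05 on the higher side. Zbtb17 was at 14.2 and 23.0 CPM and Fbxo31 at 6.61 and 12.4 CPM, both without overlap (log2 fold change 0.70 and 0.91, edgeR adjusted p = 0.260 and 0.202).

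**Figure D4:**
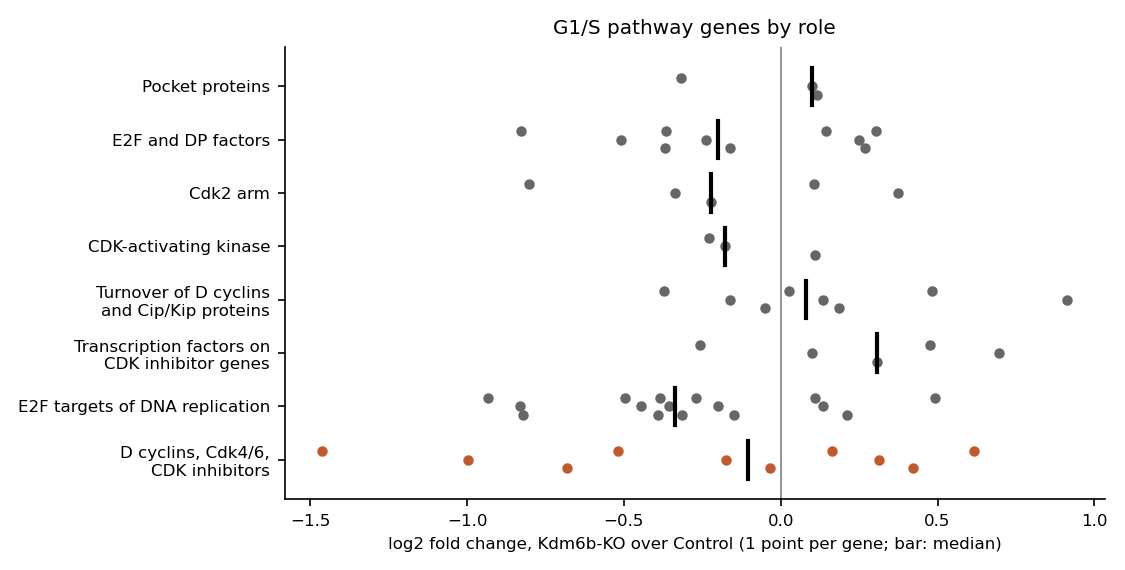
Log2 fold change (Kdm6b-KO over Control) of the 50 tested pathway genes by list, one point per gene with the list median as a line. The list of E2F targets of DNA replication has a median of -0.34 and 12 of 16 genes below 0, and the list of transcription factors acting on inhibitor genes has a median of 0.31.

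Genes next to the members were also read. Of 33 RefSeq genes within 50 kb that were tested, 16 were lower and 17 higher, none passed the threshold in edgeR, and 4 had an unadjusted p under 0.05, where 14.8% of all genes did. That count is near the share over all genes and is no result about these loci. Crebl2, 39.8 kb from Cdkn1b, was at 132 ± 38.9 CPM in Control against 73.0 ± 4.11 CPM in Kdm6b-KO without overlap (log2 fold change -0.86, SE 0.22, edgeR adjusted p = 0.109). Lockd, a noncoding RNA gene 3.57 kb past Cdkn1b, was at 50.4 ± 4.30 and 38.3 ± 6.13 CPM (log2 fold change -0.40, edgeR adjusted p = 0.383), also without overlap. The other 2 genes tested there, 2810454H06Rik at 19.6 kb and Gpr19 at 22.2 kb, which overlaps Crebl2, had log2 fold changes of -0.72 and 0.15 (edgeR adjusted p = 0.359 and 0.840). Of the 2 genes tested near Cdk6, Fam133b, at 12.8 kb, had -0.16, and 1700109H08Rik, at 40.7 kb, was at 18.9, 46.8 and 31.0 CPM in Control against 21.1, 23.0 and 16.9 CPM in Kdm6b-KO (fitted log2 fold change -0.67, edgeR adjusted p = 0.318), with overlap and with its highest value in Control replicate 2. Crebl2 and Lockd were singled out after their values were seen. Tspan31 overlaps the end of Cdk4, LTO1 overlaps Ccnd1, 9330179D12Rik overlaps Ccnd2, Bysl and Gm41590 overlap Ccnd3, and Gm29868 and Gm36470 overlap Cdk6. With the strand setting unknown, reads in the bases that such a pair shares cannot be told apart. Cdk4 and Tspan31 share only chr10:127067287-127067288.

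The ATAC lists held 47450, 44739 and 62125 peaks in the Control and 63682, 53692 and 69729 in the 6bKO libraries, of which 84, 97 and 120 and then 97, 99 and 131 fell in the windows of the 10 genes. As a share of each list this was 0.177%, 0.217% and 0.193% in Control against 0.152%, 0.184% and 0.188% in 6bKO. The groups overlapped (difference -0.0208 percentage points, two-sided exact permutation p = 0.4). Merged across libraries, the windows held 227 regions, of which 40 (17.6%) were found in all 6 libraries, against 13% of 149774 regions in the genome. Regions found in a single library made up 43.2% in the windows and 59.9% in the genome.

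A peak within 1 kb of the annotated start was found in all 6 libraries for 7 members: Cdk4, Cdk6, Ccnd2, Ccnd3, Cdkn1b, Cdkn1c and Cdkn2c. The same held for 67.1% of the genes of the RNA test with a start. For Ccnd1, Ccnd2 and Cdkn1c, which have no strand in the table, either gene end was used. Ccnd1 lacked such a peak in Control replicate 1 and Cdkn1a in Control replicate 2, and Cdkn2d had none in any library although its RNA was at 69.3 to 128 CPM. The 5 GC boxes in the Cdkn2d promoter printed above lie in that window without a peak.

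At Cdkn1b the start lay in a region, chr6:134919996-134920778, with a peak in every library. The authors' fold enrichment of the peak was 7.10, 12.1 and 10.1 in Control against 7.24, 11.7 and 11.6 in 6bKO, and the values of the groups overlap. These are each peak's own values from separate lists and cannot show a change. A second region found in all 6 libraries lay 8.29 kb past the start and overlaps the near end of Lockd, and the Cdkn1b window held 6, 5 and 8 peaks in Control against 4, 4 and 7 in 6bKO. A region 2.57 kb past the start, inside the gene, was found in 1 Control and 3 6bKO libraries.

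At Cdk6 the window of 290 kb held 14, 20 and 24 peaks in Control against 14, 15 and 20 in 6bKO, in 46 regions. Of these, 4 were found in all 6 libraries. They were a region over the start (chr5:3343543-3344672) and regions 61.4, 153.9 and 200.1 kb downstream, the last of them at Fam133b. A peak overlapped the Cdk6 promoter window printed above in only 5 libraries. In the region over the start, the authors' highest fold enrichment was 3.87, 4.82 and 5.46 in Control against 10.7, 8.83 and 7.92 in 6bKO. The groups did not overlap. These are again values of separate lists and cannot show a change, and the share of all starts without overlap was not computed. Start peaks of Ccnd1 (3.92 and 5.90 in Control replicates 2 and 3 against 9.15, 9.59 and 7.81) and Cdkn1a (3.95 and 3.39 in replicates 1 and 3 against 4.62, 4.33 and 4.40) did not overlap either. Those of the other members with a start peak did. At Cdk6, a region 2.41 kb before the start was found in 3 Control and 1 6bKO library. Another, 1.05 kb before the start, was found in 2 Control and 0 6bKO libraries. Both lie within the RefSeq span of Cdk6 and overlap Gm36470. A region 93.4 kb into the gene was found in 3 Control and 1 6bKO library. In the other direction, a region 89.6 kb into the gene (chr5:3433292-3433773) was found in the 3 6bKO libraries and in no Control library.

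**Figure D5:**
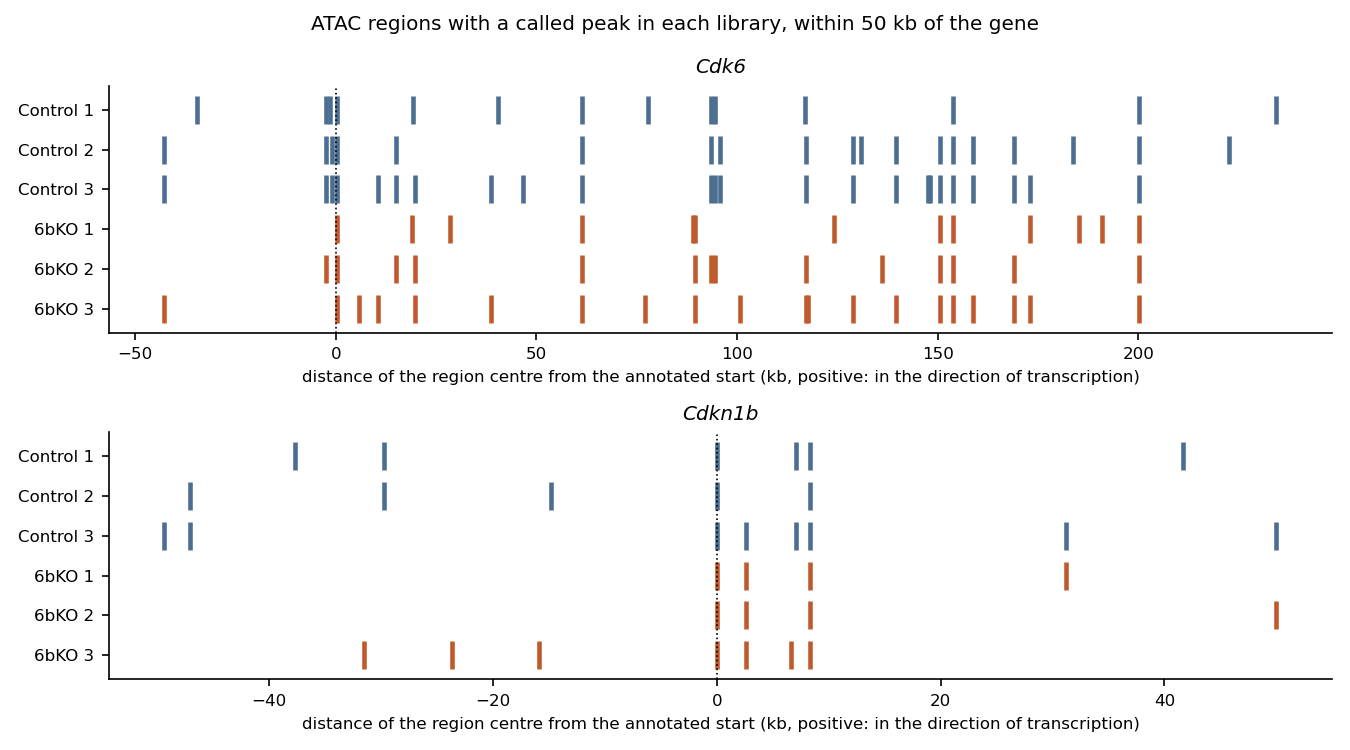
ATAC peaks around the starts of Cdk6 and Cdkn1b, by distance from the start in kb, one row per library. Each start has a peak within 1 kb in all 6 libraries. The 2 Cdkn1b regions and 4 Cdk6 regions found in every library line up across the rows.

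In the windows, 5 of the 227 regions were found in all libraries of 1 group and in none of the other, against 1.59% of regions in the genome (0.288% Control alone and 1.3% 6bKO alone). So small a count is near the genome's share and is no result about these loci. Besides the Cdk6 region, the 6bKO libraries alone had 1 region in Ccnd3, 22.7 kb past its first start (chr17:47527554-47527868), and 1 in Trp53cor1, 18.0 kb before Cdkn1a (chr17:29072725-29073314). Control libraries alone had 1 region in Med20 near Ccnd3 (chr17:47617479-47617957) and 1 at Rab44 near Cdkn1a (chr17:29113863-29114350). Ccnd3 and Cdkn1a, which each had a region of both kinds, did not differ in RNA beyond the threshold. The Cdkn1c window had 3, 5 and 5 peaks in Control against 5, 9 and 14 in 6bKO, overlapping at 5 peaks. The part of the length of the lists in this count was not tested.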

How the data were processed

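For RNA, unnormalized counts of reads per Ensembl gene were deposited for each library, made by the authors with HTSeq 0.8.0, featureCounts 1.4.5 of Subread, STAR 2.0.4 and Partek 6.6, per the submitters' processing notes, which give no roles. The strand setting is not given in the sources used here. Reads not assigned to a gene, 80.3% to 83.5% of each file, were left out. RNA libraries were made with a SMARTer Ultra Low kit, per the labels, and carry no molecular identifiers, so floors cover counting error only. The deposited ATAC lists give each peak's fold enrichment as a ratio and its q as −log10, and the submitters' processing notes name cutadapt 1.16, BWA 0.7.16a and MACS2 on mm10, with no read depth. Peaks are listed per library.

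Genotype was tested with edgeR 4.0.16 (R 4.3.3: filterByExpr, TMM factors of 0.894 to 1.06, robust quasi-likelihood fit, two-sided, Benjamini-Hochberg adjustment over 15185 genes, threshold 0.05). CPM use TMM-scaled totals, and SE is the log2 fold change over the square root of F. DESeq2 1.42.0 and limma 3.58.1 were alternatives. The test was checked on simulated counts, where it called 39% of the genes given a log2 change of 1 and 81% of those given 2. Of the calls, 4.76% were false. No 2 replicate libraries agreed within sampling noise (chi-square per degree of freedom of 15.0 or more). Ratios of counts were compared by exact permutation. Peaks overlapping by 1 bp were merged into regions. Positions and promoters came from RefSeq tables on GRCm38.p6, the assembly of mm10, matched by symbol. For RNA, pools of mice are the replicates. How many mice gave each ATAC library is not stated here.

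The members and gene lists were chosen with earlier results of these data known. All members are named. Of the pathway lists, the rule names called genes and otherwise the 2 genes of highest mean CPM per list, with the exceptions the text marks as named after their values were seen, and for likeness the 3 genes of mean CPM 20 or more with the smallest distance, of which the text gives the first or all 3.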

Additional observations from a re-analysis of the deposited data

How the results depend on the processing

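Of 228 values under alternative settings, 194 were judged the same. For counts this meant within 1.5 times, for gene fold changes the same direction and side of the threshold, and for ratios and peak shares the same direction alone. Of the rest, 23 counts moved by more than 1.5 times or from 0, 7 gene fold changes passed the threshold that had not, and 4 values changed sign. Genes called by edgeR numbered 70, against 467 with DESeq2, 42 with limma-voom, 576 without the filter on low counts, 19 without genes of chromosome 11, the chromosome of Kdm6b, and 20 to 519 with each library left out, 519 without Control replicate 1. Members called numbered 0, against 2 (Cdk6 and Cdkn1b) with DESeq2, without the filter and without Control replicate 1, and 0 to 2 with each library left out. Pathway genes called numbered 0, against 5 with DESeq2, 4 without the filter and 0 to 4 with each library left out. The regions found in 1 group alone numbered 5, against 3 at a −log10 q of at least 5, 2 in windows of 10 kb, and 7 to 13 with each library left out, where fewer libraries have to match. The log2 fold change of Ccnd2 was 0.12 with scaling by library totals and -0.098 to 0.018 with each library left out, positive without Control replicate 1. That of Cdkn2d ran from -0.47 to 0.0059, positive without Kdm6b-KO replicate 2. The log2 ratio of Ccnd2 to Ccnd1 plus Ccnd3 ran from -0.24 to 0.039 with each library left out, with the sign change without Control replicate 2. Other causes of these moves were not tested.

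Control and Kdm6b-KO libraries share replicate numbers, but the deviations of same-numbered libraries correlated at 0.012, 0.15 and -0.14, so the numbers were not taken as pairs, and not every library correlated best with its own number. With the replicate number as a block, edgeR called 88 genes (0.58%), 1 member (Cdkn1b, log2 fold change -1.37, adjusted p 0.0291) and 0 pathway genes. No read depth is known for ATAC, which limits the comparison of peak counts, and Cdkn1a, at 13 to 58 counts, is the member most limited by RNA depth.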
